A study of Mus musculus with 12 samples.

Results

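The apical turn of the cochlea was compared between 35delG homozygous and wild-type mice at P14 by RNA-seq. The comparison takes the 2 homozygous and the 2 wild-type apical libraries, 4 of the 12 libraries of the series. Each cochlea was cut into 3 pieces of equal size, of which the apical one is treated here. The comparison covers the 14780 of 37432 genes that had an FPKM of at least 1 in 2 or more of these 4 libraries. FPKM relates the fragments of a gene to its transcript length and to all mapped fragments of the library. The homozygous mice carry the *Gjb2* 35delG deletion on both alleles, and the labels give their genotype as KO. They were males that developed wholly from homozygous embryonic stem cells after complementation of tetraploid embryos, and they were born by cesarean section and raised by ICR foster mothers. Their background is almost C57BL/6J. The wild-type animals were bought males of equal age. Genotype therefore cannot be told apart from the origin and rearing of the mice. The haploid stem cells in which the allele was first made also lacked the *H19* and *IG* control regions of imprinting, and carriers of those deletions were not bred on from the F2 generation. How many mice, cochleae or stem cell lines stand behind a library is not stated.

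*Gjb2* and *Gjb6* encode connexin 26 and connexin 30, which build the gap junctions between the supporting cells of the organ of Corti and between the fibrocytes and basal and intermediate cells of the lateral wall. The organ of Corti carries the hair cells, lies under the tectorial membrane and is served by spiral ganglion neurons. The stria vascularis in the lateral wall secretes potassium into the endolymph through marginal cells, next to pigmented intermediate cells.

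The allele was made with a guide that cuts at the start of the *Gjb2* coding sequence and a donor that lacks a G. The sequences show what distinguishes the genotypes, and none of the FPKM values can tell the alleles apart. In the reference transcript, on the minus strand at chr14:57100701-57100732 of GRCm38, the capitals mark the run of 5 G at coding positions 31 to 35. In the donor primer the capitals mark a run of 4 G. In the guide, which lies on the plus strand at chr14:57100701-57100723, the capitals mark the PAM that follows it.
Wild-type transcript: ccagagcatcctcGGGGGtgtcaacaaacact
Donor primer: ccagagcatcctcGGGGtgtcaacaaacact
Guide and PAM: agtgtttgttgacacccccgAGG

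Genotypes differed in 166 genes. On the log2 scale defined below, these ran from *Dct*, a pigment gene with the largest rise, to *Eif2s3y*, a Y chromosome gene with the largest fall. Levels are given as scaled FPKM, the deposited FPKM after scaling each library with a median-of-ratios factor, and pairs of values follow the replicate numbers. Differences are homozygous minus wild-type on log2(scaled FPKM + 1), a scale that understates the change of genes near or below 1. Ranks of rises and falls rest on this scale. By the ratio of means, *Kcne1* and *Slc45a2* stood at 1060 and 914 times wild-type, and *Dct* at 281. Genes count as called when limma gave an adjusted p below 0.01 over the 14780 genes and the fold change exceeded 2, which are the thresholds of the study. Of the genes, 100 were called higher and 66 lower in the homozygous libraries. The called genes are 1.12% of those tested, those called higher 0.677% and those called lower 0.447%. In 4322 genes (29.2%) the 2 homozygous values were both above the wild-type pair, and in 4534 (30.7%) both were below it, and the genotypes overlapped in 5924. Counts of list members higher or lower in both homozygous libraries are to be read against these shares. The median difference over all genes tested was −0.01, and it was −0.14 when the libraries were rescaled to an equal sum. A gene under 1 in both libraries of a genotype passed the filter only through the other genotype, so that it could be called in 1 direction only. This holds for 38 of the genes called higher, among them *Tecta*, *Scg2*, *Kcne1*, *Esrrb*, *Bsnd*, *Hpse*, *Gpnmb*, *Slc45a2*, *Tyr*, *Mlana*, *Col6a1*, *Wfdc18*, *Gm10260* and *mt-Ts1*. It also holds for 11 of those called lower, among them *Thrb*, *Eif2s3y* and *Hsd17b6*. Every p-value of the apical comparison rests on the spread between 2 libraries of each genotype. limma pools this spread over both genotypes and moderates it towards that of genes of similar level. Leaving out ho-apex replicate 1 gave 400 called genes, and leaving out ho-apex replicate 2 gave 52.

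The 4 libraries held markers of hair cells, glia and neurons. The Euclidean distance on the log2 scale was 50.8 between the homozygous libraries, 36.6 between the wild-type libraries and 68.4 to 87.8 between genotypes. Deposited FPKM summed to 340388 and 376017 in the homozygous and to 316425 and 324586 in the wild-type libraries. Mitochondrial genes took 7.32% and 9.81% of these sums in the homozygous and 9.96% and 9.86% in the wild-type libraries. Transcripts of *Ocm*, *Slc26a5*, *Pmp22* and *Nefh*, markers of outer hair cells, Schwann cells and neurons, were measured in all 4. None of the 8 skeletal muscle genes passed the filter, and their sums stayed at 1.99 and 1.64 against 2.51 and 1.56.

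**Figure D1:**
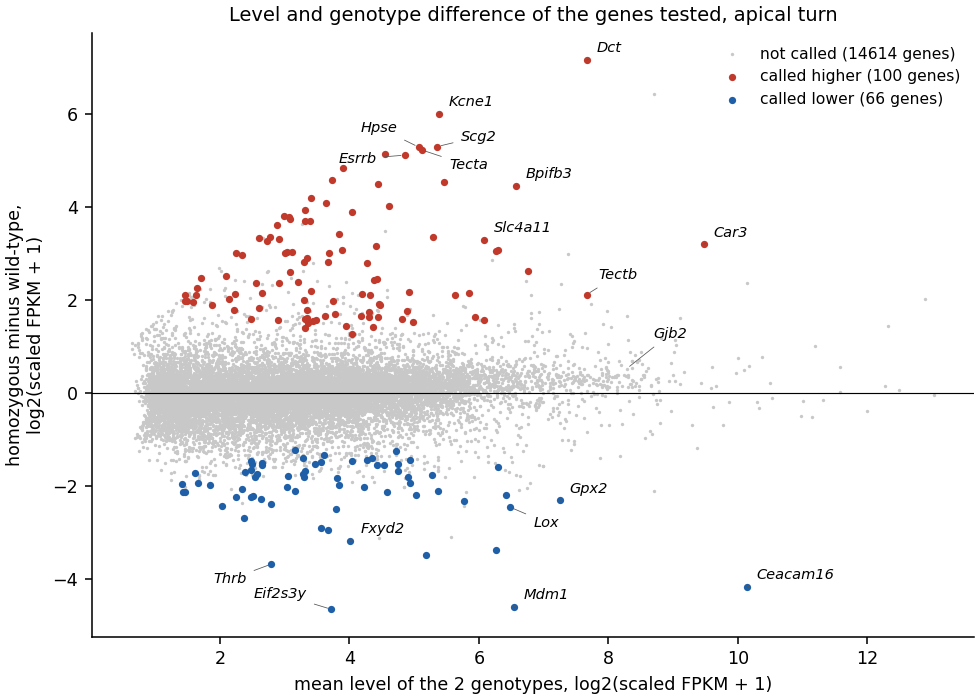
Each point is 1 of the 14780 genes, with the mean level of the 2 genotypes as log2(scaled FPKM + 1) on the x axis and the difference, homozygous minus wild-type, on the y axis. Red and blue points are the 100 genes called higher and the 66 called lower. *Dct* stands at 7.17 and *Eif2s3y* at −4.66, the ends of the range, and *Gjb2* lies among the genes that were not called.

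The mutated gene kept its transcript. *Gjb2* stood at 341 and 391 in the homozygous and at 251 and 258 in the wild-type libraries. Both homozygous values were above both wild-type values, and the means were 366 ± 35.9 and 254 ± 4.41 (SD, n = 2). The log2 difference of 0.52 (SE 0.204, adjusted p = 0.164 from limma) was not called. *Gjb6*, the gene of its partner connexin, stood at 291 and 394 against 168 and 158. Its difference of 1.05 (SE 0.223, adjusted p = 0.0417 from limma) also missed the threshold. Of 18 connexin and pannexin genes, 10 were tested and none was called, with a median difference of 0.39. Both homozygous libraries were higher in 5 of these and lower in 4. *Gjc3*, a connexin of Schwann cells, was at 16.4 and 18.97 against 23.0 and 30.3. The tested neighbours of *Gjb2* on chromosome 14 were not called either. Their differences were −0.37 for *Zmym5*, 0.14 for *2410022M11Rik*, −0.35 for *Zmym2*, 0.35 for *Cryl1* and −0.14 for *Ift88*.

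Tectorial membrane genes changed in opposite directions. Of the 6 genes of this list, 2 rose, 1 fell and 3 were not called, with a median of 0.02. *Ceacam16*, whose product helps to form the striated sheet of the membrane, had 131 and 105 in the homozygous and 2075 and 2202 in the wild-type libraries. This was an 18.2-fold lower mean, and *Ceacam16* fell by 4.18 on the log2 scale (SE 0.243, adjusted p = 0.00174 from limma). *Tecta* encodes α-tectorin, a major non-collagenous protein of the membrane. Its values of 83.5 and 49.7 stood against 0.796 and 0.688, an 89.7-fold higher mean. The log2 difference was 5.23 (SE 0.251, adjusted p = 0.000866 from limma). *Tectb*, the gene of β-tectorin, rose from 64.0 and 86.0 to 378 and 280, a log2 difference of 2.12 (adjusted p = 0.00987 from limma), and the call was kept in 4 of 16 other settings. Thus both tectorin genes were higher and *Ceacam16* was lower in every homozygous library than in either wild-type library. The 2 otogelin genes overlapped between genotypes. *Otoa*, which encodes otoancorin of the surfaces that hold the membrane and was chosen after its values were seen, was at 67.6 and 17.9 against 164 and 141 (adjusted p = 0.0713 from limma). A predicted gene on the opposite strand of *Ceacam16*, *Gm19345*, fell from 135 and 144 to 16.4 and 9.32. Reads of the overlap may count for either gene, since the strand setting of the authors' counting is not stated.

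Markers of cells under the tectorial membrane lay on both sides of wild-type. Of 12 markers of the greater epithelial ridge, the transient epithelium that secretes much of the membrane, none was called, with 6 higher and 4 lower in both homozygous libraries and a median of 0.32. Their summed level was 5698 and 3767 against 2532 and 2687, most of it *Clu*. *Clu*, which encodes the secreted chaperone clusterin, was at 3792 and 2490 against 1524 and 1531. *Epyc*, a proteoglycan gene, had a difference of 0.50. *Cpxm2*, a carboxypeptidase-like gene, was at 165 and 108 against 46.0 and 48.1 (adjusted p = 0.0202 from limma). These 3 genes were above the wild-type range in both homozygous libraries without passing the test. Of 14 supporting cell markers tested, 1 rose, 3 were higher and 4 lower in both homozygous libraries, and the median was −0.17. Over all genes tested, 29.2% were higher and 30.7% lower in both homozygous libraries. The riser was *Npy*, which encodes neuropeptide Y, at 15.6 and 14.01 against 2.99 and 2.87, a log2 difference of 2.01 (adjusted p = 0.00299 from limma). The sums of this list, led by *Fbxo2*, overlapped between genotypes at 2636 and 2883 against 2632 and 3520.

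Hair cell transcripts were mostly lower, and those of the inner hair cell synapse lay farther below wild-type than those of outer hair cells. In this bulk tissue, fewer cells of a type and less RNA per cell cannot be told apart. Of 10 tested genes of the inner hair cell synapse, 2 fell and 9 lay below both wild-type libraries, with a median of −1.20. *Cabp2*, which encodes a calcium-binding protein that tunes the calcium channel of the synapse, was at 7.83 and 7.53 against 21.5 and 24.6. Its log2 difference was −1.47 (SE 0.142, adjusted p = 0.0061 from limma). *Atp2a3*, the gene of the calcium pump SERCA3, was at 17.7 and 11.8 against 62.9 and 68.1, a log2 difference of −2.10 (SE 0.208, adjusted p = 0.00636 from limma). Both genes were named because they were called, so the gap between their genotypes follows from that choice. Other members of the list, chosen here after their values were seen, were as far apart without being called. *Otof*, the gene of the vesicle release sensor otoferlin, was at 24.3 and 14.5 against 60.6 and 62.6 (−1.66, adjusted p = 0.0181 from limma). *Slc17a8*, which loads glutamate into the vesicles of inner hair cells, was at 10.1 and 5.76 against 31.3 and 32.0 (−1.91, adjusted p = 0.0134 from limma). *Calb2*, the calcium buffer calretinin and the most abundant member, was at 99.4 and 228 against 563 and 771. *Calb2* is also a neuron gene, and in the homozygous basal libraries it was at 1185 and 860 where *Otof* was at 0.0979 and 0.108.

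The hair bundle, the set of stereocilia that senses sound, had the same direction at smaller size. Of 24 tested genes for the bundle and mechanotransduction, 1 fell, 19 were lower and 3 higher in both homozygous libraries, and the median was −0.67. *Grxcr2*, whose product sits at the base of the stereocilia, was at 6.50 and 5.35 against 16.5 and 16.2, a log2 difference of −1.33 (SE 0.15, adjusted p = 0.00975 from limma), a call kept in 6 of 16 other settings. *Clrn2*, a clarin gene also needed for the bundle and chosen after its values were seen, fell from 10.3 and 10.8 to 1.48 and 0.968, a log2 difference of −2.38 (adjusted p = 0.00311 from limma). Of 10 outer hair cell genes none was called, 6 were lower and 2 higher, and the median was −0.36. *Ocm*, which encodes the calcium buffer oncomodulin, was at 227 and 228 against 365 and 358. *Slc26a5*, the gene of the motor protein prestin, was at 18.997 and 13.0 against 27.4 and 27.9. *Sri*, the gene of sorcin, differed by −0.14. Of 6 tested hair cell transcription factors none was called and 4 were lower, with a median of −0.50. *Pou4f3*, which maintains hair cells, was at 8.81 and 7.93 against 19.4 and 19.7 (−1.14, adjusted p = 0.0114 from limma). *Gfi1*, which encodes a repressor that hair cells need, was at 2.84 and 2.65 against 5.71 and 7.52, and *Rfx7* differed by −0.45. The summed outer hair cell list was 338 and 321 against 497 and 482.

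**Figure D2:**
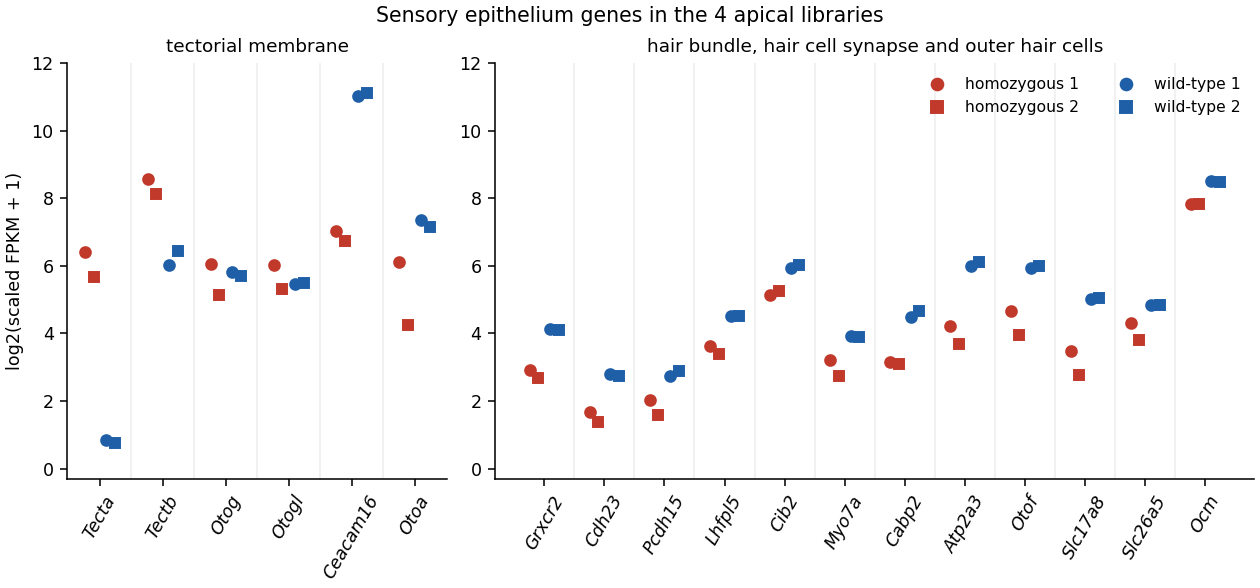
The y axis gives log2(scaled FPKM + 1) and each point is 1 library, red for homozygous and blue for wild-type, with circles for replicate 1 and squares for replicate 2. *Tecta* and *Tectb* are higher and *Ceacam16* is lower in both homozygous libraries. The 12 hair cell genes in the right panel all have both red points below both blue points, and of these *Grxcr2*, *Cabp2* and *Atp2a3* were called. The hair cell lists also held members higher in both homozygous libraries, which this panel leaves out. Higher and lower members were 3 and 19 (bundle), 1 and 9 (synapse), 2 and 6 (outer hair cells), 1 and 4 (factors).

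Transcripts of spiral ganglion neurons lay lower as a group, while no single gene passed the test. Of 26 tested markers, 24 were below both wild-type libraries and 1 was above, with a median of −1.36. The summed level was 310 and 525 against 939 and 1370, that is 0.362 times the wild-type mean, and *Snap25* was the most abundant gene. All 8 tested filament and tubulin genes were lower, with a median of −1.63. *Nefh*, the heavy neurofilament gene, was at 34.4 and 54.7 against 134 and 214 (−1.94, adjusted p = 0.0219 from limma). *Nefm*, the medium neurofilament gene, was at 35.5 and 51.0 against 120 and 187 (−1.79, adjusted p = 0.0207 from limma). *Snap25*, a SNARE of vesicle fusion, was at 40.7 and 91.6 against 150 and 224 (−1.57, adjusted p = 0.0641 from limma). In each of these 3 genes the homozygous and the wild-type values did not meet. Genes of the synaptic vesicle cycle, many of them also neuron markers, behaved alike, with 24 of 29 lower, 1 higher, none called and a median of −1.16. *Vamp1* had a difference of −1.20 and *Clta*, a clathrin light chain gene of all cells, 0.03.

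Glia of the nerve were lower to a lesser degree. Of 20 Schwann cell and myelin genes none was called, 16 were lower and 1 was higher, and the median was −0.60. The 14 myelin genes had a median of −0.77, and 13 of them were lower in both homozygous libraries. *Pmp22*, a myelin protein gene, was at 379 and 595 against 768 and 772. The member that stood apart was *S100b*, a calcium-binding protein gene that other cochlear cells also express, at 1517 and 2254 against 437 and 295 (2.36, adjusted p = 0.0185 from limma). With *S100b*, the summed level of the list was 3507 and 4859 against 3548 and 3619. Among central glia, none of 7 oligodendrocyte markers passed the filter, and the sums of these 7 were 0.736 and 10.3 against 1.56 and 0.948. Of 4 astrocyte genes, 2 were higher and 1 lower, with a median of 0.56 for the tested members. *Aqp4* differed by −0.53, *Slc1a2* by 0.58 and *Aldh1l1* by 0.80. In how far a smaller share of nerve tissue in the homozygous libraries bears on the hair cell and vesicle genes was not tested.

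Several genes of the stria vascularis rose. Of 8 tested marginal cell genes 4 were called, all higher. Of these 4, *Kcne1*, *Esrrb* and *Bsnd* passed the filter only through the homozygous libraries and could only be higher. *Kcne1*, the accessory subunit of the potassium channel of marginal cells, was at 37.0 and 126 against 0 and 0.154. It rose by 6.01 on the log2 scale (SE 0.521, adjusted p = 0.00485 from limma). *Esrrb*, a nuclear receptor that marginal cells need, was at 27.9 and 83.1 against 0.256 and 0.601, a log2 difference of 5.12 (adjusted p = 0.00561 from limma). *Bsnd*, the gene of barttin, was at 4.87 and 10.2 and listed at 0 in both wild-type libraries. These 3 genes were near 0 in wild-type and present in both homozygous libraries, with the second homozygous library at more than 2 times the first. *Kcnq1*, the pore of the same potassium channel, was at 22.4 and 62.5 against 1.93 and 3.01 (3.49, adjusted p = 0.0140 from limma). *Bsnd* and *Kcnq1* were chosen after their values were seen. The whole list of potassium recycling had 14 tested genes, of which 6 rose, 11 were higher and 3 lower in both homozygous libraries, with a median of 1.68. Its sums were 1365 and 2335 against 670 and 629.

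Genes of the outer sulcus and root cells, which take part in the same recycling, had 2 rises and no fall. *Aqp5*, a water channel gene of this region, was at 30.6 and 20.1 against 1.65 and 1.18, a log2 difference of 3.42 (SE 0.232, adjusted p = 0.00277 from limma). *Slc26a4*, the gene of the anion exchanger pendrin, rose from 33.3 and 32.5 to 93.3 and 106, a log2 difference of 1.57 (adjusted p = 0.00609 from limma). *Kcnk2*, a potassium channel gene, was at 4.43 and 2.39 against 52.0 and 25.2 (−3.12, adjusted p = 0.0114 from limma). *Slc26a4* and *Kcnk2* were chosen after their values were seen. The 6 genes of this role had a median of 0.18, with 3 higher and 3 lower.

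Pigment genes of intermediate cells and melanocytes included *Dct*, the gene with the largest rise on the log2 scale, though not by the ratio of means. *Dct*, an enzyme of melanin synthesis, was at 199 and 609 against 1.19 and 1.68. Its mean was 281 times that of wild-type, with a log2 difference of 7.17 (SE 0.487, adjusted p = 0.00277 from limma). *Slc45a2*, a melanosome transporter gene, was at 11.9 and 26.6 against 0 and 0.0421 (4.21, adjusted p = 0.00455 from limma). *Tyr*, which encodes tyrosinase, was at 7.503 and 17.98 against 0.0350 and 0.0441 (3.61, adjusted p = 0.00714 from limma). The melanosome protein gene *Mlana* was at 7.23 and 14.9 against 0.121 and 0.250 (3.27, adjusted p = 0.00636 from limma). Of 8 pigment genes on the list, 5 passed the filter and 4 of these were called. Of the called ones, *Slc45a2*, *Tyr* and *Mlana* passed it only through the homozygous libraries and could only be higher. The pigment sums were 228 and 672 against 3.18 and 4.09. Genes of identity and channels on the same list, which other cells express too, had a median of 0.09 and none was called. Over the whole list of 10 tested genes, 4 rose, 7 were higher and 1 lower, with a median of 0.68. *Gpnmb*, a melanosome and macrophage glycoprotein gene, rose from 0.701 and 0.591 to 22.1 and 59.2, and *Hpse*, the gene of heparanase, from 0.507 and 0.537 to 37.4 and 91.8.

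The promoters of these pigment genes are shown because the genes rose together and the factor MITF, which directs pigment cells, is known to bind CATGTG and CACGTG. Of *Dct*, *Tyr*, *Mlana*, *Slc45a2* and *Gpnmb*, 3 were matched in the RefSeq promoters of GRCm38.p6. CATGTG or its complement CACATG lay in the promoters of *Dct* and *Tyr*, while 14.2% of all 32851 promoters hold it. CACGTG, its own complement, was in 0 of the 3, against 7.15% of all promoters, and no stretch can match both motifs. Capitals mark the matches, which are a description and no proof of binding. The windows lie on the minus strand at chr14:118052453-118052496 and chr14:118052371-118052416 for *Dct* and at chr7:87493508-87493553 for *Tyr*.
Dct, 232 bases before the start: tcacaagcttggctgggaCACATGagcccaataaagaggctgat
Dct, 150 bases before the start: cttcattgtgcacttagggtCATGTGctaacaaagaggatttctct
Tyr, 21 bases before the start: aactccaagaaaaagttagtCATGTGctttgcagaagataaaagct
Of *Kcne1*, *Esrrb* and *Bsnd*, only *Esrrb* was matched, and neither of its 2 promoters held AAGGTCA or TGACCTT, the letters that estrogen-related receptors recognise. Of all promoters, 4.72% hold it.

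Pigment genes were high in some libraries and nearly absent from others, also outside the apical turn. With all 12 libraries scaled together, the pigment genes summed to 222 and 644 in the homozygous and 3.13 and 4.01 in the wild-type apical libraries. In the middle turn the sums were 248 and 530 against 7.97 and 3.90. In the basal turn the libraries of each genotype were split, with 172 and 3.15 in homozygous and 3.08 and 515 in wild-type. Wild-type basal replicate 2 therefore held as much pigment transcript as the homozygous apical libraries, and homozygous basal replicate 2 as little as the wild-type apical ones. The marginal cell genes *Kcne1* and *Bsnd*, picked after their values were seen, were at 60.6 and 4.65 in wild-type basal replicate 2 and at 0 and 0.0105 in homozygous basal replicate 2. The marginal cell genes as a whole were near 0 in no library, with basal sums of 753 and 216 in homozygous and 696 and 1118 in wild-type. Whether the share of stria in each dissected piece took part in the apical rises was not tested.

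**Figure D3:**
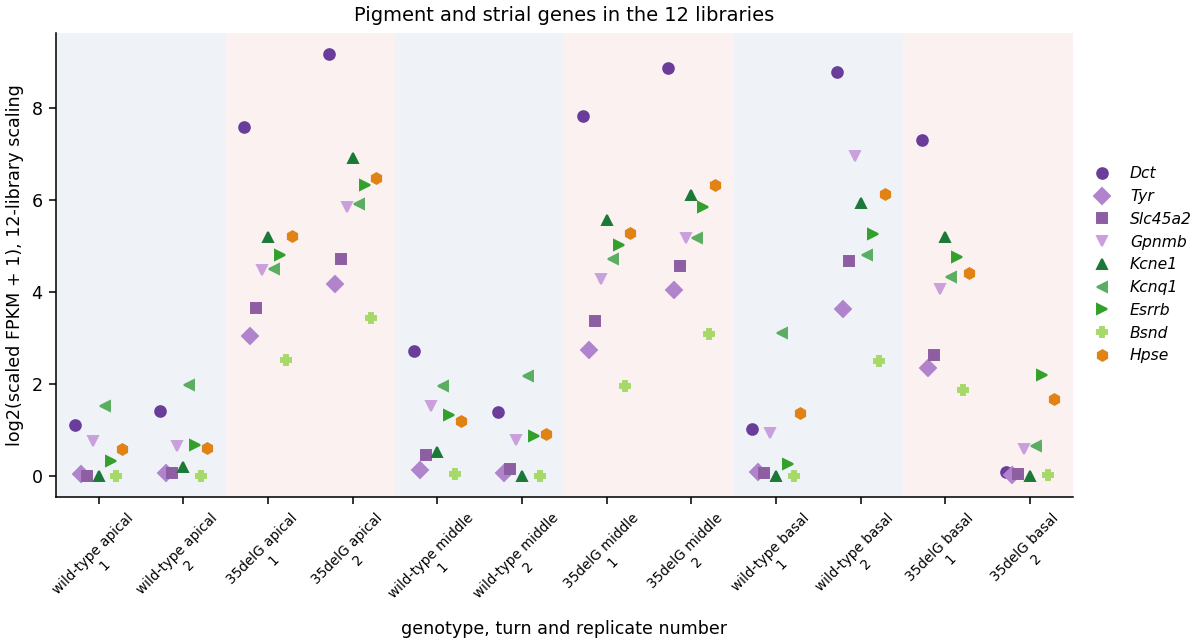
The x axis lists the 12 libraries by genotype, turn and replicate number and the y axis gives log2(scaled FPKM + 1) in the scaling over 12 libraries, with 1 symbol per gene. Purple symbols are pigment genes, green symbols marginal cell genes and orange *Hpse*. In the apical turn, *Dct* reads 193 and 584 scaled FPKM in the homozygous and 1.17 and 1.65 in the wild-type libraries, whereas in the basal turn it reads 441 in wild-type replicate 2 and 0.0644 in homozygous replicate 2.

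Among fibrocyte and basal cell genes of the lateral wall, single genes were higher while the sums overlapped. Of 9 genes 1 rose, 7 were higher and 1 was lower in both homozygous libraries, with a median of 0.52. The sums were 7524 and 8233 against 9050 and 7208, led by *Coch*. *Slc4a11*, a transporter gene of fibrocytes, rose from 15.7 and 8.26 to 129 and 114, a log2 difference of 3.30 (SE 0.284, adjusted p = 0.00485 from limma). *Cldn11*, the tight junction gene of basal cells and chosen after its values were seen, was at 260 and 413 against 106 and 70.6 (1.91, adjusted p = 0.0223 from limma).

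Extracellular matrix genes were called in both directions. Of 47 tested, 2 rose, 2 fell, 28 were higher and 8 lower in both homozygous libraries, with a median of 0.39. *Lox*, which crosslinks collagen and elastin, was at 31.1 and 22.4 against 153 and 147, a log2 difference of −2.46 (SE 0.194, adjusted p = 0.00392 from limma). *Col4a3*, a basement membrane collagen gene, fell from 14.6 and 13.6 to 3.50 and 3.98 (−1.67, adjusted p = 0.00485 from limma). *Col6a1*, a chain of collagen VI, rose from 0.826 and 0.820 to 10.2 and 18.7, a log2 difference of 3.03. *Thbs1*, the gene of thrombospondin, rose from 6.20 and 5.32 to 33.5 and 24.0, a log2 difference of 2.12. The 8 integrin genes had a median of 0.41, and 7 of them were higher.

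Bone and immune cells were also measured, since both surround the cochlear duct. All 9 tested osteoblast genes were above both wild-type libraries, with a median of 2.07 and sums of 296 and 712 against 56.5 and 120. *Bglap*, the gene of osteocalcin, rose from 2.41 and 4.22 to 35.8 and 38.3, a log2 difference of 3.17 (SE 0.221, adjusted p = 0.00287 from limma). *Ibsp*, the most abundant of them and chosen after its values were seen, was at 161 and 430 against 19.1 and 53.2 (3.002, adjusted p = 0.0351 from limma). With the 5 tested cartilage genes, whose median was 0.21, the list had a median of 1.37, 12 of 14 genes higher and 1 called. All 5 tested osteoclast genes were higher and none was called, with a median of 1.08. Among these, *Ctsk* differed by 1.16, *Nfatc1* by 0.33 and *Acp5* by 2.42. *Acp5*, at 0.537 and 0.405 in wild-type, passed the filter only through the homozygous libraries and could only be higher. Of 12 macrophage genes, 10 were higher, none was called and the median was 0.86. *C1qa*, a complement gene, was at 25.5 and 35.0 against 15.2 and 11.8, *C1qc* differed by 0.87 and *Lyz2* by 0.57, with overlap. Whether bone and macrophages took a larger share of the homozygous tissue was not tested.

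Blood cells varied between the libraries of a genotype rather than between genotypes. Sums of the erythroid genes were 289 and 1214 against 503 and 236, led by *Hbb-bs*, and all 6 tested genes overlapped, with a median of 0.60. Neutrophil genes summed to 125 and 552 against 305 and 38.5, led by *S100a9*, and all 10 overlapped, with a median of 1.03. Each of these 2 medians changed sign with 1 library left out, ho-apex replicate 2 for the erythroid and wt-apex replicate 2 for the neutrophil genes. The vessel list had 15 tested genes, 6 higher, 4 lower, none called and a median of 0.02. *Emcn*, an endothelial gene, was at 72.7 and 60.8 against 151 and 110, while *Rgs5* and *Pdgfrb* of pericytes differed by 0.45 and −0.02. Of the middle ear list 3 genes were tested and 1 was lower, *Foxj1*, at 0.745 and 0.663 against 2.28 and 2.90, with a median of −0.03. *Foxj1* passed the filter only through wild-type and could only be lower. *Tekt1* and *Ccdc39*, the others, differed by −0.03 and less than 0.01. The vestibular list had 5 tested genes, 1 higher, 2 lower and a median of −0.20, with differences from −1.68 to 1.25. *Oc90* was at 16.5 and 2.46 against 27.4 and 20.8, and *Otol1* overlapped at 39.1 and 16.1 against 21.7 and 17.4. Neither list had a called gene.

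**Figure D4:**
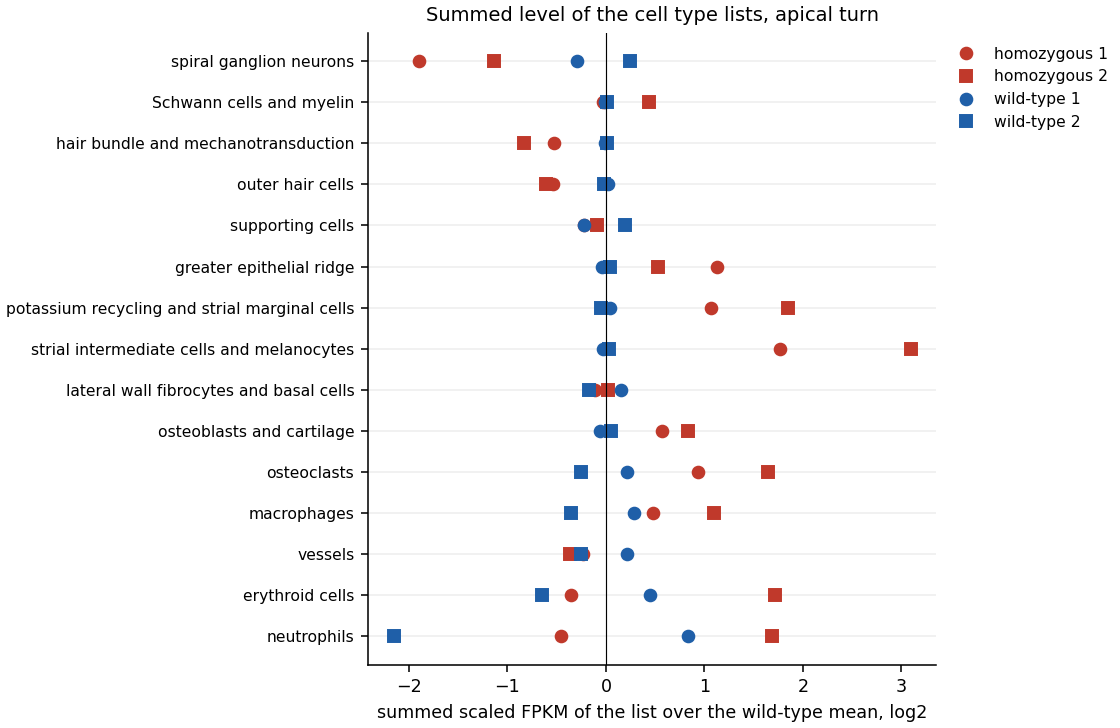
The x axis is the log2 ratio of the summed scaled FPKM of a list to its wild-type mean, and each list has 4 points, 1 per library, with colours for genotype and shapes for replicate number. Neuron sums lie to the left in both homozygous libraries and strial sums to the right. Erythroid and neutrophil points of the genotypes are mixed.

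Immune response genes were higher by a modest amount. Of 14 tested interferon and MHC genes, 1 rose and 11 were higher, with none lower in both libraries and a median of 0.65. *Bst2*, an interferon-induced membrane protein gene, rose from 11.2 and 13.9 to 45.04 and 44.0, a log2 difference of 1.75 (SE 0.155, adjusted p = 0.00496 from limma). *B2m*, the shared light chain of MHC class I and chosen after its values were seen, was at 338 and 427 against 147 and 136 (1.42, adjusted p = 0.0184 from limma). Of 16 tested apoptosis and p53 genes none was called, 10 were higher and 3 lower, and the median was 0.37 against −0.01 over all genes. *Cdkn1a* and *Mcl1*, a cell cycle inhibitor and a survival factor gene, differed by 0.65 and 0.68, and *Bcl2l1* by 0.33. Of 17 oxidative defence genes 1 rose, 1 fell, 7 were higher and 2 lower, with a median of 0.14. *Gpx2*, a glutathione peroxidase gene, fell from 236 and 268 to 48.2 and 51.3, a log2 difference of −2.32 (SE 0.166, adjusted p = 0.00299 from limma). *Nqo1*, a quinone reductase gene, rose from 4.84 and 4.38 to 13.5 and 17.8, a log2 difference of 1.56 (SE 0.176, adjusted p = 0.00975 from limma), a call kept in 8 of 16 other settings.

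Tested granin genes other than *Scg2* were lower in both homozygous libraries, as most neuron markers were. Calcium signalling genes lay on both sides of wild-type. Of 12 tested granin and neuropeptide genes 2 rose, *Npy* and *Scg2*, 4 were higher and 5 lower, and the median was −0.01. *Scg2*, which encodes secretogranin II, had 122 and 36.6 against 0.596 and 0.853, a log2 difference of 5.31 (SE 0.513, adjusted p = 0.0061 from limma). Of 26 tested genes of calcium and purinergic signalling 1 fell, the pump gene *Atp2a3*, 11 were higher and 12 lower, and the median was 0.03. Immediate early genes had 10 tested members, 4 higher, none called and a median of 0.65. *Egr1* differed by 1.11, *Ier2* by 0.33 and *Dusp1* by 0.07, and each overlapped between genotypes. Of 5 tested cell cycle genes 3 were higher, none was called and the median was 0.80. *Pcna* differed by 0.29, *Mcm2* by 0.89 and *Mcm5* by 1.06.

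Among 18 tested thyroid hormone genes, *Thrb*, the receptor gene that hearing depends on, was the only one called. *Thrb* was listed at 0 in both homozygous libraries and had 12.1 and 11.7 in wild-type. The list had 5 genes higher, 5 lower and a median of −0.08. *Dio2*, the deiodinase that activates the hormone and chosen after its values were seen, was at 15.4 and 27.1 against 4.73 and 6.63 (1.70, adjusted p = 0.0239 from limma). Of the 4 Y chromosome genes, *Eif2s3y* was listed at 0 in both homozygous libraries against 25.9 and 22.8, and 3 of the 4 were lower, with a median of −0.93. *Kdm5d* was at 1.84 and 1.23 against 6.17 and 6.54 (−1.55, adjusted p = 0.0114 from limma), while *Uty* differed by −0.31 and *Ddx3y* by −0.06. Y chromosome transcripts were thus measured in all 4 libraries.

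Imprinted genes were listed because of the history of the allele, and whether that history bears on their levels was not tested. Of 17 tested, 1 rose, 5 were higher and 7 lower in both homozygous libraries, and the median was −0.20. *Cdkn1c*, a maternally expressed inhibitor of the cell cycle, rose from 17.6 and 13.0 to 102 and 180, a log2 difference of 3.08 (SE 0.295, adjusted p = 0.00609 from limma). *H19* and *Meg3*, the maternally expressed RNAs next to the control regions named above, were chosen after their values were seen. *H19* was at 19.4 and 14.3 against 4.88 and 5.65 (1.4998, adjusted p = 0.0122 from limma). *Meg3* was at 26.1 and 22.0 against 55.8 and 134 (−1.81, adjusted p = 0.0429 from limma). Neither passed the test, and the 10 tested paternally expressed genes had a median of −0.17 with none called. The 7 tested maternally expressed genes had a median of −0.49, with 3 higher and 4 lower in both homozygous libraries.

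**Figure D5:**
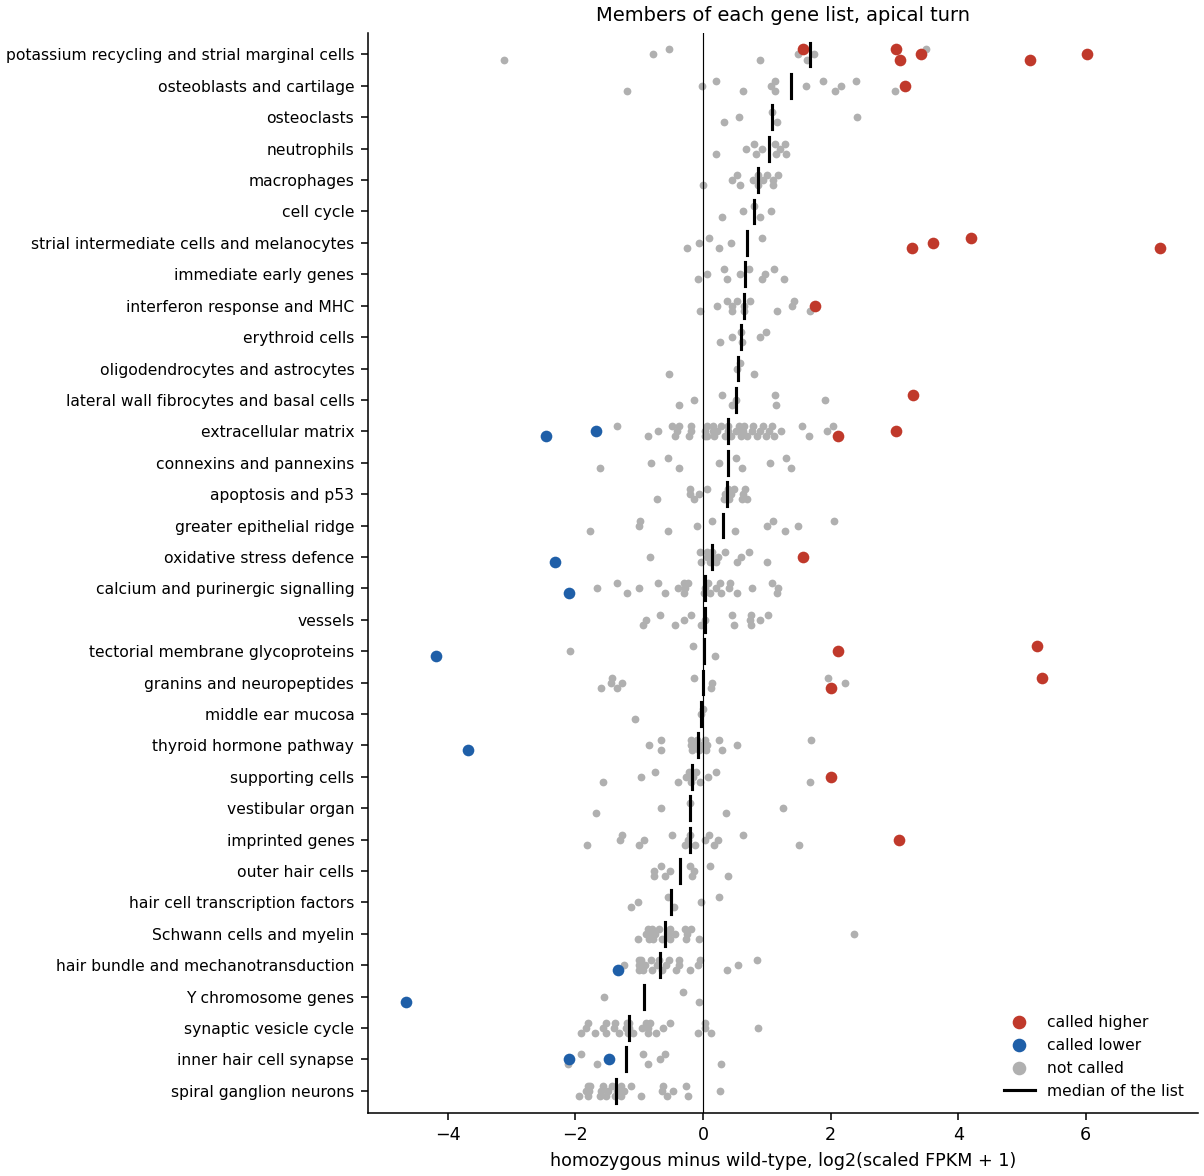
Each row is a gene list and each point a tested member, placed by its difference, homozygous minus wild-type, in log2(scaled FPKM + 1). Red and blue points were called higher and lower, grey points were not called, and the black bar is the median of the list. Lists run from 1.68 for potassium recycling at the top to −1.36 for spiral ganglion neurons at the bottom, and the median over all genes is −0.01.

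Further large rises belonged to genes outside the lists. *Bpifb3*, a gene of the BPI fold family of secreted proteins, was at 212 and 151 against 7.77 and 6.62 (4.46, adjusted p = 0.000793 from limma). *Cytl1*, a cytokine-like gene of cartilage, was at 58.8 and 108 against 2.97 and 2.02 (4.54, adjusted p = 0.00277 from limma). *Wfdc18*, of a family of small secreted proteins, was at 60.02 and 28.9 against 0.444 and 0 (5.15, adjusted p = 0.00287 from limma). These 3 were named as called genes among the 12 largest rises without overlap, so their gap between genotypes follows from that choice. *Wfdc18* passed the filter only through the homozygous libraries and could only be higher. *Gm10260* had 19.1 and 29.8 against 0.0757 and 0. The mitochondrial tRNA gene *mt-Ts1* had 31.4 and 24.1 and was listed at 0 in both wild-type libraries, but in the scaling over 12 libraries it was also at 0 in both homozygous basal libraries and at 53.02 and 60.4 in the wild-type middle ones. A listed 0 in these FPKM therefore need not mean that a gene was silent. In the same scaling, *Thrb* was at 0.0362 or less in every homozygous library and at 7.33 or more in every wild-type one. For *Eif2s3y* these limits were 0.0318 and 13.1. *Car3*, *Igf1* and *Krt8* were picked after their values were seen for their role and level. *Car3*, a carbonic anhydrase gene, rose from 117 and 163 to 1183 and 1374 (3.20, adjusted p = 0.00447 from limma). The growth factor gene *Igf1* rose from 20.3 and 19.4 to 72.2 and 115, and the epithelial keratin gene *Krt8* from 9.20 and 7.29 to 32.0 and 35.8.

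Further large falls were those of *Mdm1*, *Odf3l2*, *Fxyd2*, *Rbp7* and *Hsd17b6*. *Mdm1*, a centriole protein gene, had 6.32 and 6.27 against 155 and 201, a 28.3-fold lower mean. *Odf3l2*, related to proteins of sperm tail fibres, was at 4.90 and 5.07 against 61.1 and 70.9 (−3.48, adjusted p = 0.000793 from limma). *Fxyd2*, a regulatory subunit of the sodium pump, was at 2.16 and 2.25 against 30.1 and 26.1 (−3.18, adjusted p = 0.000796 from limma). That the genotypes lay apart in these 3 genes follows from their choice as called genes without overlap. *Rbp7*, a retinoid-binding protein gene, was at 1.28 and 2.26 against 16.5 and 23.1, and *Hsd17b6*, a dehydrogenase gene of steroids and retinoids, at 0.522 and 0.267 against 7.502 and 8.47. Of the genes of unknown function, *A730089K16Rik* fell from 20.1 and 22.7 to 1.93 and 1.86 and *Gm34653* from 21.9 and 23.2 to 4.09 and 2.40. *Slc7a14*, a transporter-like gene chosen after its values were seen, fell from 9.996 and 13.7 to 2.85 and 2.53 (−1.79, adjusted p = 0.00798 from limma).

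For 27 of the 166, among them *Mdm1*, *Gpx2*, *Cdkn1c*, *A730089K16Rik* and *mt-Ts1*, the gene overlaps a tested gene on the other strand, and reads of the overlap may count for either. Of the 100 genes called higher, 72 had homozygous repeats within a factor of 1.5, in 22 the second repeat was higher by more than that and in 6 the first. Of the 66 called lower, 51 were within it, and in 12 the first repeat and in 3 the second was higher by more.

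To ask whether the apical changes differ from those of the other turns, the difference between genotype effects was tested with limma over all 12 libraries and 16215 genes. No gene was called between the apical and middle turns (0%), where 1306 genes had an unadjusted p under 0.05. Between the apical and basal turns, 129 genes were called (0.796%), 42 with a higher and 87 with a lower effect in the apical turn, and 13 of them were also called in the apical turn. *Tecta* and *Scg2* were among those with a higher apical effect. The basal libraries of the genotypes were unlike in tissue markers. In the scaling over 12 libraries, spiral ganglion neuron genes summed to 4055 and 4203 in homozygous and 78.9 and 1084 in wild-type basal libraries. Genes of the middle ear mucosa summed to 3457 in wild-type basal replicate 2 and to less than 20 in every other library. The otogelin genes of the tectorial membrane summed to 0.508 and 0.101 in homozygous and 19.4 and 29.9 in wild-type basal libraries. How far these differences in markers shaped the 129 genes was not tested. The fit treats the turns as independent, although their libraries may come from the same cochleae. The count was 0 when any of the 4 apical libraries was left out, and 0 with the replicate number fitted as a block. It was 1094 without wt-base replicate 2.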

How the data were processed

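Libraries of the apical turn of P14 mice, 2 homozygous for 35delG and 2 wild-type, were compared. Per the submitters' processing notes and the methods, reads of 150 bp were cleaned with fastp 0.20.0, aligned to mm10 with STAR 2.7.3a and counted with featureCounts 2.0.0, and DESeq2 1.30.0 was the authors' test. The values used here are the FPKM that the authors calculated with StringTie 2.0 and deposited. Whole-read steps are not visible in them (smallest value above 0: 1e-06), so the depth is unknown and no counting error is given.

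Median-of-ratios factors came from the 12920 genes that reached 1 FPKM in all 4 libraries. Genes reaching it in at least 2 were tested on log2(scaled FPKM + 1) with limma 3.58.1 (R 4.3.3; eBayes with trend, 2 residual degrees of freedom, two-sided, Benjamini-Hochberg). Called genes had an adjusted p below 0.01 and more than a 2-fold change. Differences between turns were contrasts over 12 libraries in 6 groups. Figures used matplotlib 3.10.9 in Python 3.11.15. No column was left out.

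The members and the 35 gene lists (542 genes) were chosen with earlier results of these data known. Named genes are *Gjb2*, *Gjb6*, the 3 tested neighbours on each side, the 12 largest rises and 12 largest falls of called genes whose higher genotype averaged 5 or more without overlap, each list's called members (up to 4) or else its 3 most abundant ones, *Thrb* and Y chromosome genes. Others are marked as chosen after their values were seen. Some genes that this rule names are not reported here, and they are kept in the counts. The alternatives changed the pseudocount (0.1, 0.01), the filter (none, 5 FPKM), the scaling (as deposited, equal sums, quantile normalization), the libraries (all 12, each left out in turn), the limma trend, a replicate block, the adjusted p (0.05) and the limit on the fold change.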

Additional observations from a re-analysis of the deposited data

Results flagged for a closer look

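The genotype effect of 3 named genes differed between the apical and basal turns in the limma contrast over 12 libraries. *Tecta* had an effect of 5.19 in the apical and −0.64 in the basal turn, a difference of 5.83 (SE 0.731, adjusted p = 0.0069), and its homozygous middle libraries stood between at 6.76 and 11.8 scaled FPKM. *Scg2* had 5.27 and 0.08, a difference of 5.19 (SE 0.722, adjusted p = 0.00903). *Nqo1* had 1.53 and −0.52, a difference of 2.06 (SE 0.297, adjusted p = 0.00991 from limma). Each of these calls was lost when any apical library was left out, and with the replicate number fitted as a block.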

How the results depend on the processing

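The number of genes called in the apical turn (166, genes called higher in the apical turn 100, genes called lower in the apical turn 66) depended on the settings. It was 29 (16 higher, 13 lower) with all 12 libraries, 827 (382, 445) with a replicate block although replicate numbers do not pair (r = −0.0668), and 883 (427, 456) at an adjusted p of 0.05. Without a filter limma called 0 (0 higher, 0 lower), where 5495 genes had an unadjusted p under 0.05. Leaving out a library gave 52 (without ho-apex replicate 2) to 400 (without ho-apex replicate 1), with 32 to 236 higher and 20 to 164 lower, and 95 (25 lower) without wt-apex replicate 2. The lone library of a genotype was then assumed to vary like the other group, and the genes of the 4 libraries were kept. The other settings gave 122 to 200. Apical and middle turns differed in 0 genes by limma in every setting (1306 at an unadjusted p under 0.05). The genes whose genotype effect differs between the apical and basal turns were 129, and 0 with the replicate block (4538 at an unadjusted p under 0.05), 1810 at an adjusted p of 0.05 and 0 to 1094 when a library was left out. It was 0 without ho-apex replicate 1 (4140), ho-apex replicate 2 (3633), wt-apex replicate 1 (3774) or wt-apex replicate 2 (3309 at an unadjusted p under 0.05), 70 without ho-base replicate 2, 56 without wt-base replicate 1 and 1094 without wt-base replicate 2. No reported called gene changed sign, but calls were lost. Of the 49 reported called genes, 0 kept the call without a filter, 8 with all 12 libraries and 28 without ho-apex replicate 2, and *Dct* and *Kcne1* were among those lost with all 12 libraries. Of 16 settings, *Tectb* kept its call in 4, *Grxcr2* in 6, *Nqo1* in 8, *Igf1* and *Slc7a14* in 9, *Bsnd* and *Cabp2* in 10. Of the others, *Clta* was −0.12 with equal sums, −0.16 after quantile normalization and −0.15 to 0.22 with a library left out. *Dusp1* was −0.0816 with equal sums and −0.47 to 0.62, *Tekt1* 0.0349 after quantile normalization and −0.15 to 0.0785. *Ccdc39* was −0.0117 and −0.0146 with pseudocounts of 0.1 and 0.01, −0.10 with equal sums, −0.0135 with all 12 libraries and −0.35 to 0.37. With a library left out, *Hbb-bs* ranged from −0.15 to 1.93, *Hba-a1* from −0.43 to 1.65, *Hba-a2* from −0.56 to 1.47, *Lyz2* from −0.0751 to 1.22, *S100a8* from −0.22 to 2.51, *S100a9* from −0.13 to 2.73, *Ngp* from −0.12 to 2.69, *Pdgfrb* from −0.24 to 0.19, *Ier2* from −0.18 to 0.84, *Pcna* from −0.0360 to 0.63, *Ddx3y* from −0.16 to 0.0401 and *Otol1* from −0.25 to 0.98. The median changed sign in some setting for the lists of the thyroid hormone pathway, tectorial membrane, supporting cells, calcium signalling, erythroid cells, neutrophils, vessels, middle ear and oxidative defence, and for all genes. Other medians kept their sign but moved in size. The cell cycle median ran from 0.34 to 1.23 and that of immediate early genes from 0.30 to 1.02. For the greater epithelial ridge it was 0.09 to 0.56, for osteoclasts 0.61 to 1.30 and for the hair bundle −0.87 to −0.43. The cause was not tested.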
